A study of Mus musculus with 16 samples.

Results

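The genes that move salt and water across the airway surface were followed through RNA sequencing of primary murine tracheal epithelial cell cultures (MTECs). They were 10 listed genes, taken by symbol out of 49315 Ensembl gene identifiers in the count table: the chloride channels and exchanger Cftr, Ano1 and Slc26a4, the secreted protein gene Clca1, the epithelial sodium channel subunits Scnn1a, Scnn1b and Scnn1g, the cotransporter Slc12a2, and the water channels Aqp3 and Aqp4. All 10 were found, and 9 passed the filter on low counts, with Slc26a4 left out of the tests. MTECs are primary cells grown on inserts until they differentiate with air above and medium below. The cultures came from male and female C57BL/6J mice, either WT or knockout (KO) littermates for LMAN1, a lectin that carries glycoproteins out of the endoplasmic reticulum. They were left naive or were given house dust mite extract (HDM) at 20 µg/ml overnight. This gave 8 groups of sex, genotype and treatment with 2 biological replicates each, or 16 libraries. The tracheas of several animals were pooled for the cultures, and the inserts were coated with a matrix laid down by 3T3 cells, a mouse fibroblast line.

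A thin layer of liquid covers the airway surface, and its depth is set by how much salt the epithelium secretes and absorbs. Chloride enters the cell from the basal side through the cotransporter and leaves through apical channels, sodium is absorbed through the apical sodium channel, and water follows through aquaporins or between cells. In airway disease this liquid layer and the mucus above it are among the best known sites of failure, as in cystic fibrosis, which is caused by loss of CFTR.

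The 16 libraries held 21860698 to 43442188 counts. Lman1 itself was at 101 to 144 CPM (a gene's count relative to all counts of its library, scaled by TMM factors) in the 8 WT libraries and at 12.8 to 78.1 CPM in the 8 libraries labelled KO. Of these 8, 3 were at 10.6 to 11.8% of the WT mean and 5 were at 52.6 to 64.8%, so that the label KO is used here as given. Both naive female KO libraries were at 10.6% and the HDM ones at 55.3 and 64.8%, and this difference moves with every HDM value given for females labelled KO. The 5 basal cell markers were detected in all libraries, with sums of 6500 CPM or more in 14 and of 1969 and 3976 CPM in female WT HDM. In that pair Ngfr was at 12.4 and 9.28 CPM and Krt15 at 179 and 95.9 CPM. Krt14 was at 2017.5 and 1199 CPM there, against 1823 and 2523 CPM in naive female WT, so the basal markers did not move alike. The summed ciliated markers were at 54.5 to 149 CPM, most of it Foxj1, and the ionocyte markers at 4.40 to 10.7 CPM. The ciliated markers did not move alike in female WT either. Foxj1 was at 69.5 and 89.4 CPM naive and at 79.1 and 86.6 CPM after HDM. Ccdc153 went from 4.54 and 8.74 CPM to 0.375 and 0.332 CPM. A bulk library cannot tell fewer cells of a type from less RNA per cell.

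The start regions of 3 of these genes are shown because their RNA moved differently after HDM: Aqp3, which had the largest change among the 6 members with an entry, and the neighbours Scnn1b and Scnn1g, which lie 96.6 kb apart on the same strand of chromosome 7. The sequences are the 250 bases before the annotated start, from RefSeq on GRCm38.p6, written 5′ to 3′ on the gene's own strand, with any TATAAA in capitals.
Aqp3, chr4:41098184-41098433, minus strand: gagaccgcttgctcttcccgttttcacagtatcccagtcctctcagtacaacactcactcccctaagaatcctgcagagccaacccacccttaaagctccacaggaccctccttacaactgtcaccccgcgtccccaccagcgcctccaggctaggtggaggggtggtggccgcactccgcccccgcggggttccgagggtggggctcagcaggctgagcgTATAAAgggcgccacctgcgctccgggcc
Scnn1b, chr7:121864788-121865037, plus strand: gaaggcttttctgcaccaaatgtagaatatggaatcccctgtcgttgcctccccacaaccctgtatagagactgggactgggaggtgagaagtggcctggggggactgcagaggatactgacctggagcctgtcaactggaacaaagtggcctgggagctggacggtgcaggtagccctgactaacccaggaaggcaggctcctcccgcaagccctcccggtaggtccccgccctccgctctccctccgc
Scnn1g, chr7:121734229-121734478, plus strand: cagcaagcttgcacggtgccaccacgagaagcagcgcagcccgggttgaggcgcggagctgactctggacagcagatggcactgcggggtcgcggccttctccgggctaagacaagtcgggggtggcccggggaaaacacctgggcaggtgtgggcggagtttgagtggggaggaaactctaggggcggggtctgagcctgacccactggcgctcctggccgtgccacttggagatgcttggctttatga
Aqp3 held TATAAA with its first base 29 bases before the start, and so did Slc26a4 at 31 bases, among the 6 members with an entry. These letters, read on both strands, were present in 12.4% of all 32851 such windows. The AP-1 letters TGACTCA and TGAGTCA, the CRE letters TGACGTCA and the forkhead letters TGTTTAC and TATTTAC were searched on both strands in windows of 300 bases that run 50 bases past the start. They were not present in the 6 windows, against 5.20%, 1.79% and 6.54% of all windows. The printed Aqp3 window was 64.0% G and C, that of Scnn1g 65.2% and that of Scnn1b 60.8%, against a median of 52.4% over all promoters. Scnn1b had 7 CpG dinucleotides in its window and Scnn1g had 16.

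In the naive cultures the members kept nearly the same order. Per kilobase of exon, Aqp3 was the highest in each of the 4 naive groups, with means of 459 to 530 CPM per kb. Aqp4 followed at 80.8 to 108 CPM per kb, then Scnn1a at 61.9 to 75.7 and Slc12a2 at 35.7 to 52.4, and the ranges of Aqp4 and Scnn1a overlapped in naive males labelled KO. Ano1 was at 13.2 to 19.9 CPM per kb and Scnn1g at 2.85 to 4.06, Scnn1b at 0.799 to 1.16, Clca1 at 0.815 to 1.04 and Cftr at 0.118 to 0.162. The ranges of Scnn1b and Clca1 overlapped in both naive KO groups. Slc26a4, an apical anion exchanger that is pendrin, came last with 0 to 6 counts per library. HDM changed this order in female WT cultures, where Slc12a2 was the highest at 94.9 CPM per kb, Ano1 was the second at 46.9 and Aqp3 was the fourth at 17.0, and no range overlapped the next down to Aqp4 at 1.42. In the HDM-treated male groups Aqp3 remained first at 452 and 575 CPM per kb, and it was also first in HDM-treated females labelled KO at 420 CPM per kb. The order below it changed in those females too. Slc12a2 came next at 65.9 CPM per kb, then Scnn1a at 54.7, Ano1 at 30.5 and Aqp4 at 16.1, and no range overlapped the next.

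**Figure D1:**
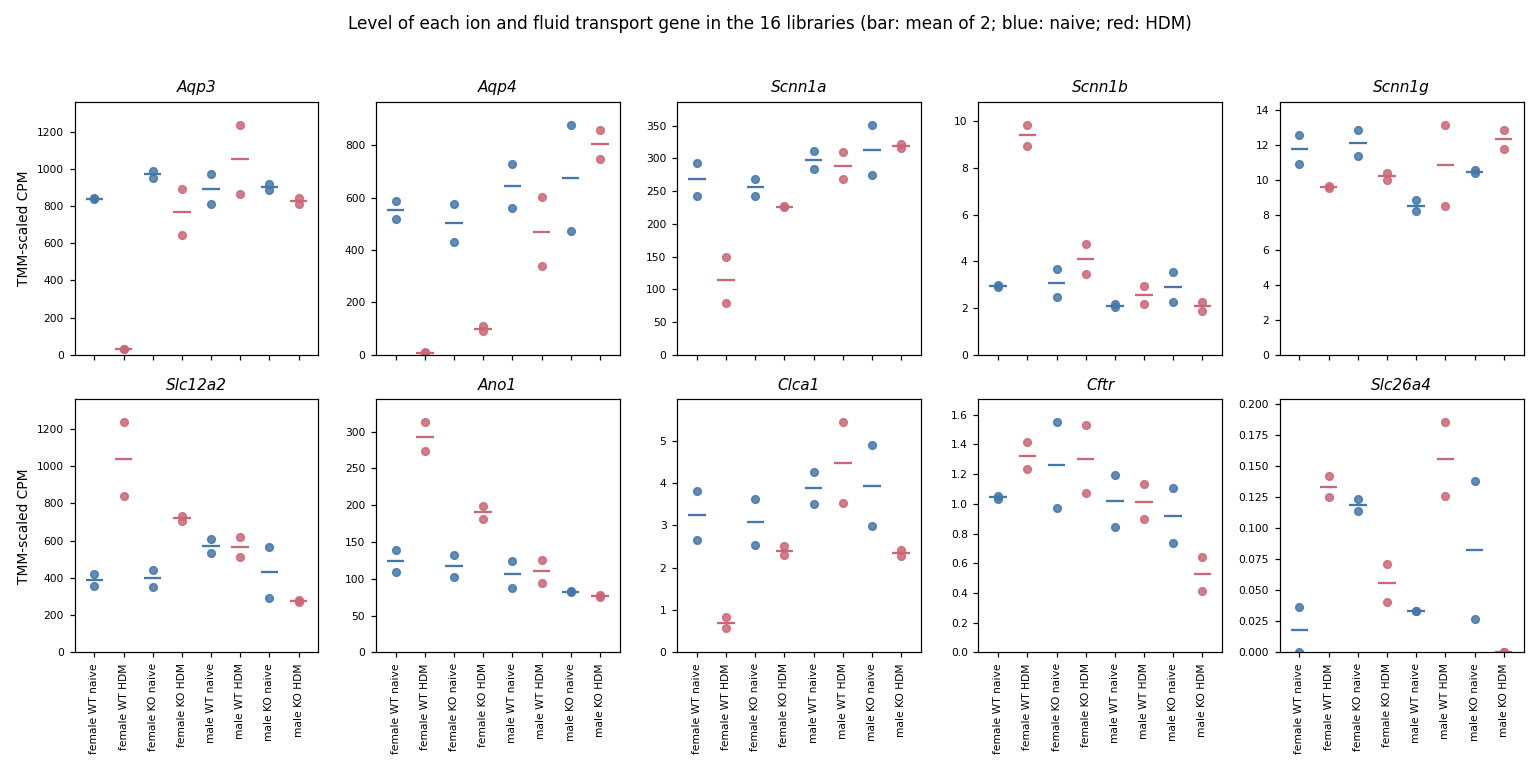
Level of each gene in TMM-scaled CPM (vertical axes from 0, scaled per gene) in the 8 groups, with a point for each library and a bar at the mean of 2. Female WT HDM libraries stand apart for Aqp3 (30.9 and 31.2 CPM) and Aqp4 (7.53 and 10.1 CPM) at the low end and for Ano1 (273 and 313 CPM) at the high end.

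HDM changed 7 of the 9 tested genes in female WT cultures. Here 3 rose (Scnn1b, Slc12a2 and Ano1) and 4 fell (Aqp4, Aqp3, Clca1 and Scnn1a), while Cftr and Scnn1g did not pass the test (edgeR, adjusted p under 0.05). Over all 15993 tested genes 43.1% were called in this comparison, 20.6% higher and 22.4% lower, so that change was common. The median log2 fold change of the 9 was -0.29, and over all tested genes it was -0.02. Among females labelled KO 2 of 9 passed, with Ano1 higher and Aqp4 lower, against 10.4% of all genes (4.63% higher and 5.77% lower). In males, no member and no other gene passed the test in WT cultures (0%, with 665 genes at an unadjusted p under 0.05) or in those labelled KO (0%, with 857). DESeq2 called 2 genes in male WT and 1 gene in males labelled KO, with no member among them.

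**Figure D2:**
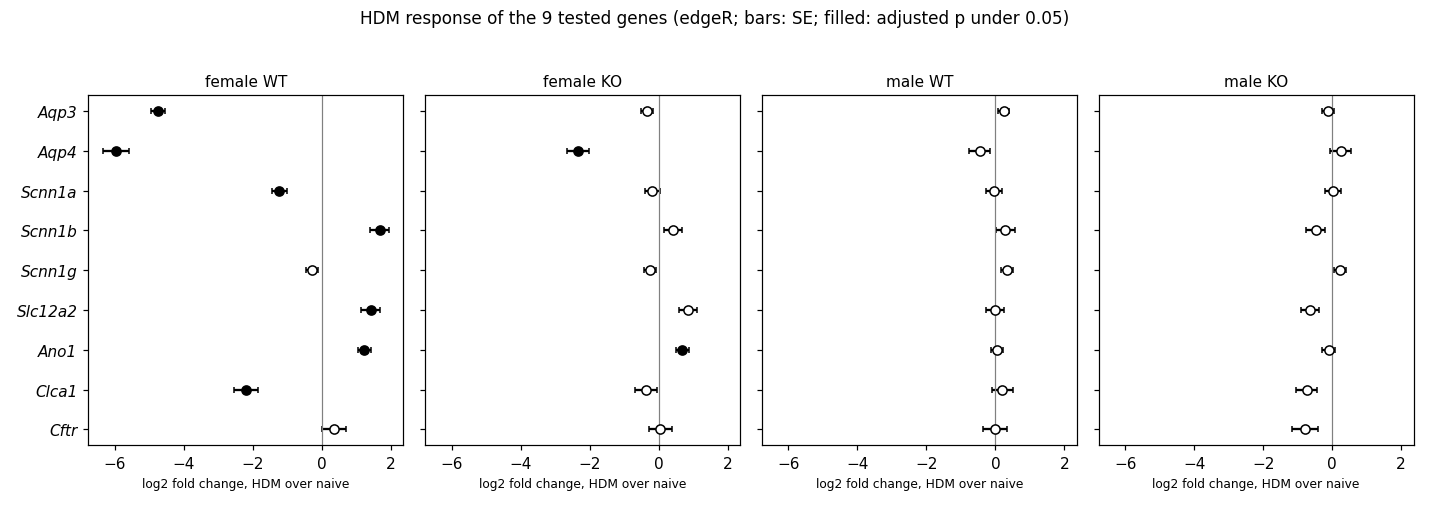
Log2 fold change of HDM-treated over naive cultures for the 9 tested genes in each sex and genotype, with bars of 1 SE from edgeR and filled points at an adjusted p under 0.05. There are 7 filled points in female WT, 2 in female KO and 0 in both male panels.

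The water channels changed most. AQP3 is an aquaglyceroporin of the basolateral membrane, found in airway basal cells, and passes water and glycerol. Aqp3 (chromosome 4, 41092722 to 41098183, GRCm38) was at 841 and 837 CPM in naive female WT cultures and at 31.2 and 30.9 CPM after HDM. Females labelled KO had 951 and 989 CPM naive and 890 and 645 CPM after HDM. The 14 libraries other than female WT HDM thus had at least 645 CPM, and nothing overlapped that pair. Male WT cultures were at 970 and 813 CPM naive and at 1238 and 867 CPM after HDM, and those labelled KO at 921 and 887 and then 811 and 843 CPM. The fall in female WT was 27.0-fold (log2 fold change -4.76 ± 0.20 SE, edgeR adjusted p = 6.66e-08), and the change in females labelled KO was -0.34 ± 0.17 (adjusted p = 0.232). The responses of the genotypes differed by 4.42 ± 0.25 on the log2 scale (edgeR adjusted p = 7.62e-06).

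AQP4 is the basolateral water channel of airway epithelium and of astrocytes, and passes water alone. Aqp4 was at 586 and 519 CPM in naive female WT libraries and at 7.53 and 10.1 CPM after HDM, from 181 and 214 counts. Females labelled KO had 575 and 432 CPM naive and 109 and 91.8 CPM after HDM, which lay below every naive and every male library. Male WT cultures had 559 and 728 CPM naive and 340 and 601 CPM after HDM, and those labelled KO had 473 and 879 and then 747 and 859 CPM. Their naive and HDM ranges overlapped in both genotypes. In female WT the fall was 62.7-fold (log2 fold change -5.97 ± 0.39 SE, edgeR adjusted p = 8.56e-07), and in females labelled KO it was 5.02-fold (-2.33 ± 0.32, adjusted p = 0.00149). The genotypes differed in this response by 3.64 ± 0.46 on the log2 scale (edgeR adjusted p = 0.00108). Both aquaporins thus fell in female WT, whereas in females labelled KO the fall of Aqp4 passed the test and that of Aqp3 did not. Per kilobase, Aqp3 exceeded Aqp4 by 24.0 to 27.8 times in HDM-treated females labelled KO and by 5.63 to 7.79 times in the naive ones. The ratio was also higher after HDM in female WT, at 10.4 to 14.1 against 4.90 to 5.50 naive. In male WT HDM it was 4.92 to 12.4.

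The sodium channel subunits moved apart. The channel (ENaC) is built from an alpha, a beta and a gamma subunit, encoded by Scnn1a, Scnn1b and Scnn1g, and sets the rate of sodium absorption. Scnn1a was at 293 and 243 CPM in naive female WT cultures and at 149 and 79.0 CPM after HDM. Both HDM values lay below the other 14 libraries, which ranged from 225 to 351.5 CPM, and the pair differed between themselves. The fall was 2.35-fold (log2 fold change -1.23 ± 0.23 SE, edgeR adjusted p = 0.00117). Scnn1b was at 2.98 and 2.90 CPM in naive female WT libraries and at 8.95 and 9.85 CPM after HDM, from 215 and 208 counts. No other library exceeded 4.76 CPM, and the rise was 3.20-fold (1.68 ± 0.27, edgeR adjusted p = 0.000454). Scnn1g was at 12.6 and 10.9 CPM naive and at 9.65 and 9.57 CPM after HDM in female WT, within the 8.21 to 13.2 CPM of all libraries (log2 fold change -0.29 ± 0.17, edgeR adjusted p = 0.203).

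Set per length, the alpha subunit exceeded the beta subunit by 53.3 and 62.7 times in naive female WT cultures and by 10.6 and 5.11 times after HDM, and in the other 14 libraries by 30.2 to 108 times. Gamma exceeded beta by 1.85 to 5.47 times in those 14 libraries, while in the HDM-treated female WT pair it was at 0.855 and 0.950 times the beta level. The 2 ratios of female WT HDM lay outside the range of the other libraries in both cases. These ratios are descriptions made after the values were seen. In the female KO cultures, Scnn1a was at 269 and 243 CPM naive and at 225 and 227 CPM after HDM, and Scnn1b at 2.48 and 3.65 and then 4.76 and 3.47 CPM. Their HDM responses were -0.18 ± 0.22 and 0.42 ± 0.27 on the log2 scale (edgeR adjusted p = 0.671 and 0.354). The genotype difference in response missed the threshold for both, at 1.05 ± 0.32 for Scnn1a (adjusted p = 0.054) and -1.25 ± 0.38 for Scnn1b (adjusted p = 0.0529). With DESeq2 both differences passed, at an adjusted p of 0.00949 and 0.0251.

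**Figure D3:**
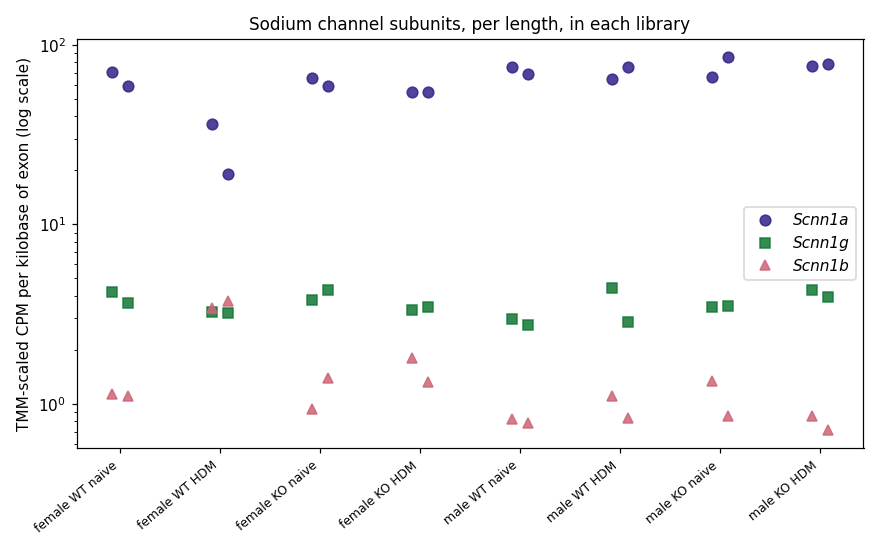
Sodium channel subunits in TMM-scaled CPM per kilobase of exon on a log axis, with a point for each of the 16 libraries. In female WT HDM the beta subunit Scnn1b (3.40 and 3.74) meets the gamma subunit Scnn1g (3.20 and 3.23), while Scnn1a is at its lowest (36.1 and 19.1).

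Slc12a2 encodes NKCC1, the basolateral cotransporter that loads sodium, potassium and chloride into secreting cells. It was at 356 and 423 CPM in naive female WT libraries and at 1234.5 and 839 CPM after HDM, the 2 highest values of the 16. The rise was 2.66-fold (log2 fold change 1.41 ± 0.26 SE, edgeR adjusted p = 0.00129). Females labelled KO were at 350 and 445 CPM naive and at 706 and 732 CPM after HDM, with no overlap, and the change of 0.86 ± 0.26 missed the threshold (edgeR adjusted p = 0.0603). DESeq2 called it (adjusted p = 0.00641), and so did edgeR on the compared libraries alone (adjusted p = 0.00244). Male WT libraries were at 611 and 533 CPM naive and at 617 and 511 CPM after HDM. Naive males labelled KO differed between themselves, at 564 and 294 CPM, and their HDM pair was at 271 and 281 CPM. Lman1 was at 11.8 and 52.6% of the WT mean in these naive libraries and at 53.9 and 54.8% in the HDM pair.

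Among the anion channels, Ano1 carried the clearest change. ANO1, or TMEM16A, is the calcium-activated chloride channel of the apical membrane. Ano1 (chromosome 7, 144588549 to 144751974, GRCm38) was at 110 and 139 CPM in naive female WT cultures and at 313 and 273 CPM after HDM, a rise of 2.36-fold (log2 fold change 1.24 ± 0.19 SE, edgeR adjusted p = 0.000308). Females labelled KO rose from 103 and 133 to 182 and 199 CPM (0.69 ± 0.18, adjusted p = 0.035). The 4 HDM-treated female libraries were the 4 highest of the 16, and the others ranged from 75.3 to 139 CPM. Male WT cultures were at 87.9 and 125 CPM naive and at 94.3 and 126 CPM after HDM, and those labelled KO at 81.9 and 83.0 and then 78.7 and 75.3 CPM. The call in females labelled KO was lost when any 1 of its 4 libraries was left out, with adjusted p from 0.0504 to 0.269. The difference between the genotypes in response was -0.54 ± 0.26 (edgeR adjusted p = 0.195).

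Clca1, the product of which is secreted by goblet cells and raises calcium-activated chloride current, was low. It was at 2.65 and 3.82 CPM in naive female WT libraries and at 0.832 and 0.568 CPM after HDM, from 20 and 12 counts. No other library was under 2.28 CPM, and the fall was 4.6-fold (log2 fold change -2.20 ± 0.36 SE, edgeR adjusted p = 0.000514). Females labelled KO were at 2.54 and 3.62 CPM naive and at 2.30 and 2.51 CPM after HDM (-0.36 ± 0.32, adjusted p = 0.532). Clca1 has close paralogs in a gene cluster, and how reads shared with them were counted is not given in the sources used here.

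Cftr, the chloride and bicarbonate channel of the apical membrane, was low. Its 16 values ran from 0.413 to 1.55 CPM, with 12 to 50 counts per library. In female WT cultures it was at 1.05 and 1.03 CPM naive and at 1.41 and 1.23 CPM after HDM, which did not pass the test (log2 fold change 0.34 ± 0.35 SE, edgeR adjusted p = 0.451). Females labelled KO were at 0.969 and 1.55 CPM naive and at 1.53 and 1.07 CPM after HDM. The lowest pair was in HDM-treated males labelled KO, at 0.642 and 0.413 CPM from 18 and 12 counts. An antisense gene shares 1.66% of the Cftr exon length and was at 0.0273 CPM at most. Slc26a4 had 0 counts in 3 libraries, where the floor of 3 counts corresponds to 0.0674, 0.103 and 0.107 CPM, and its highest value was 0.185 CPM in a male WT HDM library. No fold change is given for it, since both groups of each comparison were near this floor.

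Sex differences of the members passed the test only in HDM-treated cultures. In naive cultures no member was called between males and females, in WT (0.1% of all genes) or in those labelled KO (0.188%). This does not show equal levels. In naive WT the sexes did not overlap for Slc12a2, Scnn1b or Scnn1g, while the other tested members overlapped. Slc12a2 was at 611 and 533 CPM in males and at 356 and 423 CPM in females. Scnn1b was at 2.15 and 2.05 CPM against 2.98 and 2.90, and Scnn1g at 8.85 and 8.21 against 12.6 and 10.9. Naive cultures labelled KO did not overlap for Ano1, Scnn1a, Scnn1g and Aqp3. In HDM-treated WT cultures 7 of 9 were called, against 41.6% of all genes. Here 4 were higher in males (21.3% of all genes), with Aqp4 at 340 and 601 CPM against 7.53 and 10.1 (log2 difference 5.74 ± 0.38 SE), Aqp3 at 1238 and 867 CPM against 31.2 and 30.9 (5.08 ± 0.20), Clca1 at 2.66 ± 0.36 and Scnn1a at 1.34 ± 0.23. The other 3 were lower in males (20.3% of all genes), namely Scnn1b at -1.87 ± 0.27, Ano1 at -1.41 ± 0.19 and Slc12a2 at -0.88 ± 0.26. The Slc12a2 call (edgeR adjusted p = 0.0188) was lost without male WT HDM replicate 2 (0.111) or female WT HDM replicate 1 (0.153).

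In HDM-treated cultures labelled KO 5 members differed between the sexes, against 25.3% of all genes. Aqp4 was higher in males (12.9% of all genes), at 747 and 859 CPM against 109 and 91.8 CPM in females (log2 difference 3.00 ± 0.33 SE, edgeR adjusted p = 0.000143). Lower in males (12.4% of all genes) were Slc12a2 at -1.38 ± 0.26, Ano1 at -1.31 ± 0.19, Cftr at -1.30 ± 0.37 and Scnn1b at -0.99 ± 0.27. Aqp3 did not pass, at 0.11 ± 0.17 (edgeR adjusted p = 0.683). The count was 3 without male KO HDM replicate 2 or without female KO HDM replicate 1, with Cftr and Scnn1b the members lost in each case, and Scnn1b was also lost without male KO HDM replicate 1 (adjusted p 0.0675).

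The comparisons between genotypes after HDM rest on KO libraries with Lman1 at 53.9 to 64.8% of the WT mean. Between genotypes, no member was called in naive females (0% of all genes, 203 at an unadjusted p under 0.05) or naive males (0%, 867). Lman1 itself was not called in naive females, at 123 and 123 CPM in WT and 12.8 and 12.8 CPM under the KO label. The lack of a call there thus does not show equal levels. In HDM-treated females 6 of 9 were called, against 29.2% of all genes. Those labelled KO were higher for Aqp3 (log2 difference 4.63 ± 0.20 SE), Aqp4 (3.51 ± 0.36), Clca1 (1.76 ± 0.36) and Scnn1a (0.99 ± 0.23), where 14.9% of all genes were higher. They were lower for Scnn1b (-1.19 ± 0.26) and Ano1 (-0.62 ± 0.18), where 14.3% of all genes were lower. Aqp3, Aqp4 and Scnn1a kept their calls in every alternative fit, and Ano1 lost its call without any 1 of the 4 libraries (adjusted p 0.0681 to 0.118). Scnn1b was lost without female KO HDM replicate 2 (0.0785), and leaving out female WT HDM replicate 2 took the count to 3 by removing Ano1, Clca1 and Scnn1b. In HDM-treated males no member passed by edgeR (0%, with 2897 genes at an unadjusted p under 0.05). DESeq2 called 562 genes there, Slc12a2 among them, at 271 and 281 CPM in males labelled KO against 617 and 511 CPM in WT (log2 difference -1.03, DESeq2 adjusted p = 0.00592, edgeR adjusted p = 0.161).

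The difference of the HDM response between the sexes was tested directly. In WT it was called for 7 of 9 members, against 24.2% of all genes. It was positive, higher in females, for Slc12a2, Scnn1b and Ano1 (11.3% of all genes), and negative for Aqp4, Aqp3, Clca1 and Scnn1a (12.8%). The calls of Scnn1a, Scnn1b and Slc12a2 were all lost without female WT naive replicate 1, which left 4, and without male WT HDM replicate 2, where Scnn1g was called. In cultures labelled KO it was called for Slc12a2 in the positive direction (1.79% of all genes) and Aqp4 in the negative direction (1.77%), against 3.56% in either. Slc12a2 lost this call without any 1 of 7 of the 8 KO libraries (adjusted p 0.0721 to 0.221), and Aqp4 without male KO HDM replicate 2, female KO naive replicate 1 or female KO HDM replicate 2 (0.063 to 0.0762). The difference between the genotypes in females was called for Aqp3, Aqp4 and Clca1 (11.2% of all genes), each with the smaller fall in females labelled KO (6.16% higher), and no member was among the 5.08% called lower. The Clca1 call was lost without any 1 of 7 of the 8 female libraries, female WT HDM replicate 1 excepted (adjusted p 0.0533 to 0.145). In males it was called for no member and no gene (0%, 1388 at an unadjusted p under 0.05). These comparisons share their libraries with each other and with the HDM responses above.

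Other genes of the same transport system also changed in female WT cultures. Of 67 other transport genes listed by hand, 62 were tested, and 11 rose, 30 fell and 21 did not pass after HDM. The list was made with earlier results of these data known, so its shares beside those of all genes are descriptions. Of all genes 43.1% were called, 20.6% higher and 22.4% lower, so that the number that rose was near the background. With the KO label 3 rose, 8 fell and 51 did not pass, or 17.7% called against 10.4% of all genes. Of all genes 4.63% were higher and 5.77% lower there, so that the 3 that rose were again near the background. The median log2 fold change over the 62 was -0.29 in WT and -0.05 in those labelled KO, and 0 of 62 were called in males of either genotype. By role, 10 of 17 regulators of the sodium channel and its proteases fell in female WT and 3 rose, against 22.4% of all genes lower and 20.6% higher, so that the number that rose was near the background. For the sodium pump and basolateral potassium channels 7 of 10 fell and 0 rose, and the anion channels and exchangers split into 5 of 16 higher and 5 lower, against the same shares of all genes.

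Named members of these groups reached large folds. Aqp5, the apical water channel of secretory cells, went from a mean of 2511 to 152 CPM in female WT (log2 fold change -4.05 ± 0.29 SE, edgeR adjusted p = 1.71e-06) and from 2433 to 1162 CPM in females labelled KO (-1.07 ± 0.26, adjusted p = 0.0235). Bpifa1, which encodes SPLUNC1, a secreted inhibitor of the sodium channel, went from 83.2 to 1.32 CPM in female WT (-5.96 ± 0.85) and from 63.0 to 14.9 CPM in females labelled KO, which missed the threshold (-2.07 ± 0.62, edgeR adjusted p = 0.0558). Tmprss4, a membrane serine protease able to activate the channel, went from 66.3 to 4.06 CPM in female WT (-4.02 ± 0.25). In females labelled KO it went from 73.8 to 38.7 CPM, which also passed (-0.93 ± 0.20, edgeR adjusted p = 0.0138). Wnk4, a kinase that regulates chloride cotransporters and the channel, went from 85.4 to 11.2 CPM in female WT (-2.92 ± 0.17). Under the KO label it went from 90.7 to 57.1 CPM (-0.67 ± 0.15, edgeR adjusted p = 0.0185). Vipr1, a receptor for vasoactive intestinal peptide, went from 6.81 to 0.799 CPM in female WT (-3.06 ± 0.46). In females labelled KO it went from 5.89 to 3.13 CPM and did not pass the test.

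Kcne3, a partner subunit of the basolateral potassium channel KCNQ1, fell by 2.52 on the log2 scale in female WT. In females labelled KO it went from 10.4 to 4.88 CPM and did not pass the test. Car12, a membrane carbonic anhydrase, went from 9.86 to 1.56 CPM in female WT (-2.66 ± 0.58) and from 11.0 to 17.8 CPM in females labelled KO, where it did not pass the test. Slc4a11, a transporter of the bicarbonate transporter family, rose from 12.0 to 97.0 CPM in female WT (3.00 ± 0.55). In females labelled KO it went from 13.6 to 32.7 CPM and did not pass the test. For females labelled KO the rise of Slc4a4, a sodium bicarbonate cotransporter, passed at 1.28 ± 0.29, with means of 49.6 and 120 CPM. So did those of Ano6, a lipid scramblase and ion channel, and Lrrc8a, a subunit of the volume-regulated anion channel, at 0.61 ± 0.08 and 0.40 ± 0.10. These 3 also rose in female WT, by 2.17 ± 0.30, 1.05 ± 0.08 and 0.94 ± 0.10. Atp1b1, the beta subunit of the sodium pump, fell by 1.02 in females labelled KO, and Lrrc26, a partner of the potassium channel KCNMA1, fell by 0.85, and in female WT they fell by 2.37 and 1.65.

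The genotype difference in response was called for 18 of the 62 in females, 14 positive and 4 negative, against 6.16% of all genes positive and 5.08% negative, so that the negative number was near the background. It was 3.89 ± 1.08 for Bpifa1, 3.35 ± 0.76 for Car12, 3.09 ± 0.31 for Tmprss4, 2.98 ± 0.37 for Aqp5 and 2.25 ± 0.23 for Wnk4 on the log2 scale (edgeR adjusted p from 0.000239 to 0.0413). Vipr1, Atp1b1 and Aqp11, a water channel of internal membranes, followed at 2.15 ± 0.61, 1.35 ± 0.28 and 1.25 ± 0.27. The female response minus the male one in WT was -5.38 ± 1.04 for Bpifa1, -4.12 ± 0.38 for Aqp5, -4.08 ± 0.31 for Tmprss4, -3.10 ± 0.75 for Car12 and -3.08 ± 0.59 for Vipr1. It was -2.96 ± 0.23 for Wnk4, -2.20 ± 0.28 for Atp1b1 and 2.34 ± 0.75 for Slc4a11. Between the sexes 31 of 62 responses differed in WT (50% against 24.2% of all genes) and 3 of 62 in cultures labelled KO, where 4.84% is near the 3.56% of all genes. These were Kcnn4, a calcium-activated potassium channel (2.04 ± 0.50), Ano6 (0.67 ± 0.12) and Lrrc8a (0.62 ± 0.14).

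**Figure D4:**
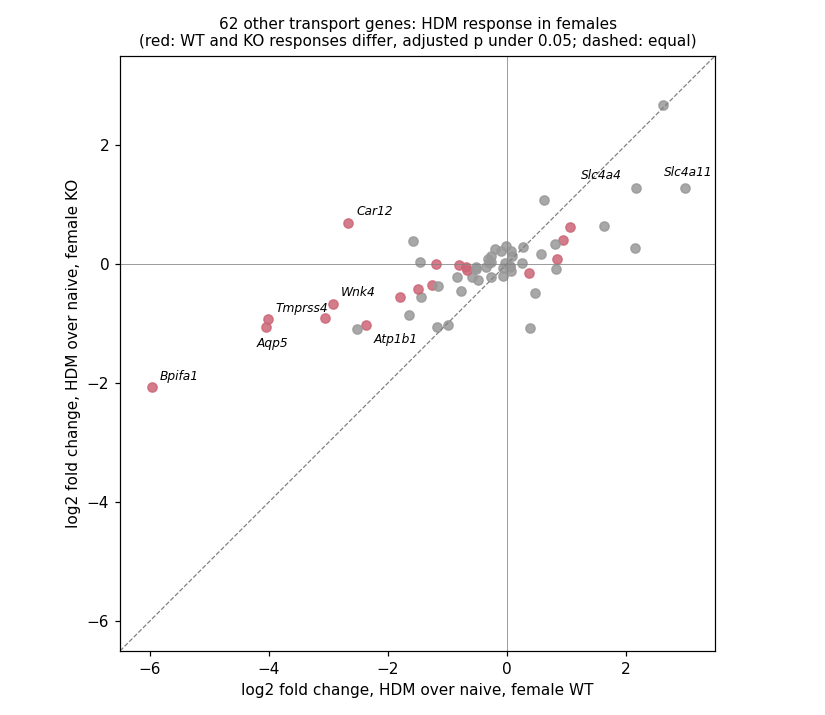
Log2 fold change of HDM over naive for the 62 other transport genes, with female WT on the horizontal and female KO on the vertical axis, each point a gene, red where the responses differ at an adjusted p under 0.05. Bpifa1, Aqp5, Tmprss4 and Wnk4 lie far to the left of the dashed line of equal response.

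Markers of the cell types moved with these results. In female WT cultures 4 of 5 basal markers, 5 of 5 club and secretory markers, 5 of 5 goblet markers and 2 of 5 ciliated markers fell after HDM, against 22.4% of all genes. The summed basal level went from 9462 and 10333 CPM to 3976 and 1969 CPM, and the goblet level from 87.3 and 87.1 to 2.29 and 2.23 CPM. The club and secretory level went from 17348 and 13115 to 4654 and 3764 CPM. Nearly all of it was Cyp2f2, at 16711 and 12611 CPM naive and at 4645 and 3754 CPM after HDM. The club cell gene Scgb1a1 was low, at 2.18 and 3.75 CPM naive and at 0.125 and 0.0474 CPM after HDM. Under the KO label 0 of 5 basal markers were called (9684 and 10939 CPM naive, 12758 and 10148 CPM after HDM). There 4 of 5 club and secretory markers and 3 of 5 goblet markers fell, against 5.77% of all genes lower. The goblet sum went to 10.4 and 9.95 CPM. Of the ciliated markers 0 of 5 were called, although their sum went from 112 and 132 CPM naive to 56.5 and 62.2 CPM after HDM. In males 0 markers were called in either genotype. Foxi1, the defining gene of the ionocyte, in which Cftr is known to be concentrated, was at 0 in the 4 HDM-treated female libraries and at 0.337 to 0.655 CPM in the 4 naive ones. A count of 0 allows up to 0.107 to 0.142 CPM in the 4 HDM-treated libraries, and 3 of 5 ionocyte markers fell in female WT (22.4% of all genes) and 2 of 5 in females labelled KO (5.77%).

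Other values also moved with HDM in females. Mitochondrial genes took 2.04 and 2.5% of counts in the 2 female WT HDM libraries and 0.608 and 0.675% in the naive pair. The share was also higher after HDM in females labelled KO, at 1.36 and 1.39% against 0.517 and 0.535% naive, while the 8 male libraries ranged from 0.668 to 1.52%. Acta2, an actin of smooth muscle and of activated fibroblasts, was at 272 and 441 CPM in female WT HDM and at 52.3 and 127 CPM in the naive pair, while the defining smooth muscle genes Myh11 and Des were at 1.20 CPM or less in the 4 female WT libraries and 0 of 2 tested smooth muscle markers were called. In female WT the summed fibroblast markers differed more between replicates than between treatments. They were at 29.3 and 577 CPM naive and at 48.9 and 606 CPM after HDM. The fibroblast markers did not move alike under this sum. Col1a1 went from 9.12 and 249 to 3.12 and 47.1 CPM. Pdgfra went from 1.02 and 2.20 to 3.58 and 11.8 CPM, and Lum from 0.254 and 0.877 to 1.04 and 28.0 CPM. By the test 2 of 8 rose, which is near the 20.6% of all genes, and 0 fell. The part of cell types, RNA quality and matrix cells in the changes of the 10 genes was not tested. Leaving out any 1 of the 4 female WT libraries kept all 7 member calls in the female WT response.

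**Figure D5:**
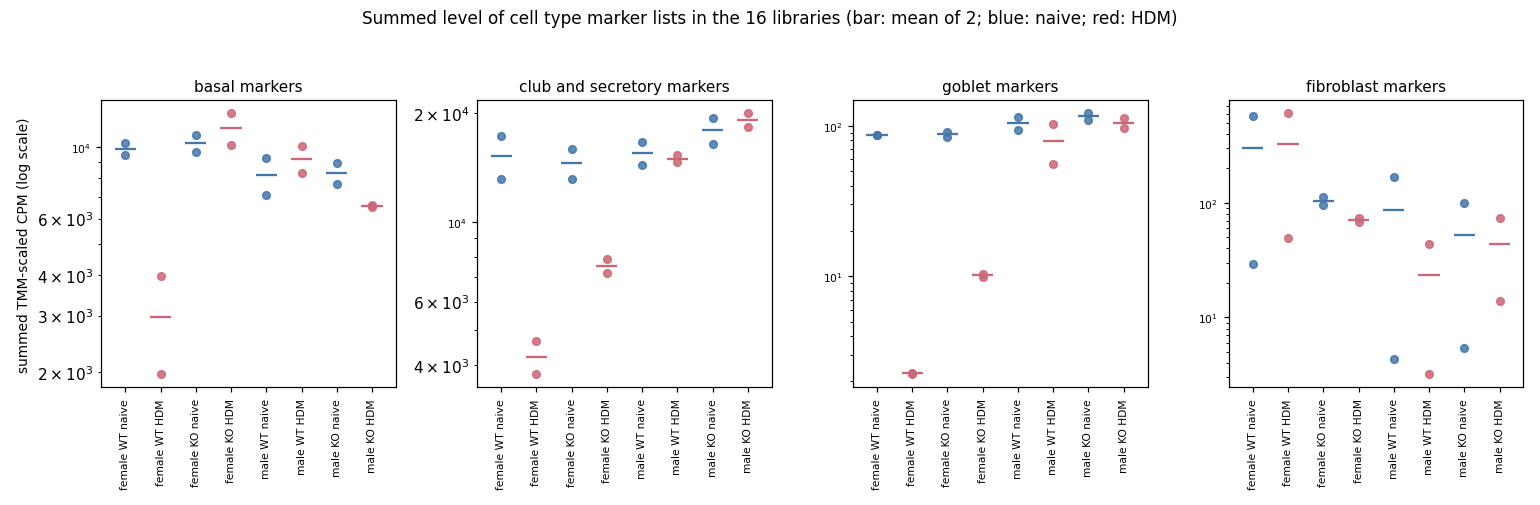
Summed TMM-scaled CPM of 4 marker lists on log axes in the 16 libraries, a point for each library and a bar at the mean of 2. Basal markers are low in female WT HDM (1969 and 3976 CPM) but not in female KO HDM (10148 and 12758 CPM), goblet markers are low in both, and fibroblast markers vary between replicates.

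The genes whose levels ran most like each member over the 16 libraries were ranked by Pearson correlation of log2(CPM + 1). The 16 points share the contrast of female WT HDM with the rest, so these are descriptions. Aqp4 ran with Ccr2, Tst and Aldh1a7 (r = 0.995, 0.995 and 0.994) and Aqp3 with Tmprss13, Pdzk1ip1 and Fam110c (0.990, 0.985 and 0.985). Scnn1a ran with Fgfr2, Eps8 and Dnmbp (0.993, 0.984 and 0.983), whereas Scnn1b ran with Dda1, Tmsb10 and Gcsh (0.979, 0.979 and 0.978). Ano1 ran with Hdac6, Ecm1 and Arl4c (0.985, 0.980 and 0.979), Slc12a2 with Cd44, Lamb3 and Adgrl1 (0.971, 0.961 and 0.958), and Clca1 with Alox15, Fxyd3 and Cdc42se1 (0.954, 0.947 and 0.947). For Scnn1g the highest were Hdgfl2, Coq7 and Aspscr1 at only 0.839, 0.835 and 0.829, and for the sparse Cftr they were Rpl10a-ps1, Fdxr and Ociad2 at 0.924, 0.919 and 0.917. Among the members themselves the strongest correlation was -0.953, for Scnn1b and Aqp4. It was -0.924 for Scnn1a and Scnn1b, 0.906 for Scnn1a and Aqp4, -0.906 for Ano1 and Aqp4, and 0.903 for Aqp3 and Aqp4. For Ano1 and Scnn1b it was 0.853, all over 16 libraries.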

How the data were processed

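RNA from 16 MTEC libraries was measured as reads per gene. The authors deposited 1 table of raw counts for 49315 Ensembl identifiers, not normalized. The submitters' processing notes name Trimmomatic 0.36, STAR 2.5.2b, featureCounts of Subread 1.5.2, DESeq2 and GRCm38. The annotation release and the strand setting are not given in the sources used here, so reads of antisense partners cannot be told apart. Columns were matched to samples by sex, genotype, treatment and replicate. Symbols came from GENCODE M21, with 48970 identifiers matched, and promoters from RefSeq, with 6 of 10 genes matched.

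After filterByExpr, 15993 genes were kept. They were scaled with TMM and tested by quasi-likelihood in edgeR 4.0.16 (R 4.3.3), with 1 coefficient for each of the 8 groups. Calls were two-sided at a Benjamini-Hochberg adjusted p under 0.05 in each of 16 comparisons. The p-values measure the spread between the 2 libraries of a group, labelled as biological replicates. This spread was pooled over all 8 groups and shared in part between genes. A pair that differs, as the naive males labelled KO did in Lman1, thus enters comparisons of other groups too. Levels are TMM-scaled CPM, and between genes CPM per kb of the union of exons. Totals were 21860698 to 43442188 counts, and the floor of 3 counts covers counting error only. The members and lists were chosen with earlier results of these data known. Other transport genes were named if called, with a mean of at least 4 CPM, and among the 8 largest changes of an HDM response or response difference. Genes alike in level were the top 3 for members with a mean of at least 1 CPM. The fit was tested on simulated data with few changed genes, all in the female WT HDM group. That does not test it where change is as common as in the female WT response. Alternatives were DESeq2 1.42.0, a replicate block, each library left out, fits to the compared libraries alone, scaling by upper quartiles or by library size, and filters that kept every gene with a count or asked for 10 counts in all libraries. Figures used matplotlib 3.10.9.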

Additional observations from a re-analysis of the deposited data

Results flagged for a closer look

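Differences of the HDM response between sexes or genotypes were flagged where the interaction itself passed the test in edgeR (adjusted p under 0.05), and all values are on the log2 scale. In WT the response of females minus that of males was -5.52 for Aqp4 (adjusted p = 2.17e-05), -5.00 for Aqp3 (9.45e-07), -2.40 for Clca1 (0.00387), -1.19 for Scnn1a (0.0189), 1.43 for Slc12a2 (0.0161), 1.39 for Scnn1b (0.0214) and 1.19 for Ano1 (0.0073). The calls of Aqp4, Aqp3, Clca1 and Ano1 held in all 15 alternatives. That of Scnn1a was lost without male WT naive replicate 2, male WT HDM replicate 2 or female WT naive replicate 1 and on the compared libraries alone. Slc12a2 was lost without male WT HDM replicate 2 or either replicate 1 of female WT, and Scnn1b without any 1 of 6 of the 8 WT libraries, male and female WT HDM replicate 1 excepted. The adjusted p was then at most 0.0736.

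In cultures labelled KO the response of females minus that of males was -2.58 for Aqp4 (edgeR adjusted p = 0.0118) and 1.49 for Slc12a2 (0.0496). The Slc12a2 call was lost without any 1 of 7 of the 8 libraries (adjusted p 0.0721 to 0.221), with upper-quartile scaling, with the replicate block and on the compared libraries alone, and that of Aqp4 without 1 of 3 libraries (0.063 to 0.0762). The naive males labelled KO were at 564 and 294 CPM of Slc12a2, and without the first of these the value was 0.95 (adjusted p = 0.15).

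In females the response of those labelled KO minus that of WT was 4.42 for Aqp3 (edgeR adjusted p = 7.62e-06), 3.64 for Aqp4 (0.00108) and 1.85 for Clca1 (0.033). The Clca1 call was lost without any 1 of 7 of the 8 female libraries, with adjusted p from 0.0533 to 0.145, and those of Aqp3 and Aqp4 held in all 15 alternatives.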

How the results depend on the processing

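Over 477 refits of the 39 member changes that were called, 426 kept direction and call, 51 kept direction without the call and 0 reversed. The 7 calls in the female WT response held in every refit. Member counts moved as follows. Without a filter, edgeR estimated an infinite prior df (3.54 with the filter), so that no spread of a gene's own was used, and calls rose to 4 in the female KO response, 1 in each male response, 1 and 2 between naive sexes in WT and KO, 5 between genotypes in HDM males, and 7 in females and 2 in males for the genotype difference in response. DESeq2 gave 1 call between genotypes in HDM males and 5 in the genotype difference of the female response. For the sex difference of the response in KO, upper-quartile scaling and the replicate block each gave 1 call in place of 2.

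With each library left out in turn, calls were 7 in the female WT response, 1 in that of female KO, 0 in both male responses and in every naive comparison, and 0 between genotypes in HDM males. Between sexes after HDM they were 6 to 7 in WT and 3 to 5 in KO, and between genotypes in HDM females 3 to 5. For the difference of responses they were 4 to 7 between sexes in WT, 0 to 2 between sexes in KO, 2 to 4 between genotypes in females and 0 in males. Scnn1g was called without male WT HDM replicate 2 in the sex difference of the WT response (-0.92, adjusted p = 0.0059) and between sexes in HDM WT (0.46, 0.0275), and Scnn1a without female WT HDM replicate 1 in the genotype difference of the female response (1.59, 0.0012). Over all genes the female WT response had 4576 to 6264 calls, the sex difference of the WT response 2262 to 3824, the female KO response 373 to 907, the sex difference 4219 to 6122 in HDM WT and 1734 to 2304 in HDM KO, the genotype difference in HDM females 1701 to 4568, and the response differences 52 to 1112 between sexes in KO and 496 to 2383 between genotypes in females. A group left with 1 library is assumed to vary like the others.

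Over all genes, without the filter calls went from 1664 to 2717 in the female KO response, from 0 to 149 and 705 in the male responses of WT and KO, from 16 to 644 and 30 to 859 between naive sexes in WT and KO, and from 0 to 135 and 98 between genotypes in naive females and males. They went from 0 to 1896 between genotypes in HDM males, and for the response differences from 569 to 1977 between sexes in KO, from 1798 to 3029 between genotypes in females and from 0 to 668 in males. DESeq2 gave 204 and 216 between naive sexes, 562 between genotypes in HDM males, 1192 for the sex difference of the KO response and 2 or fewer in the male responses and between genotypes in naive cultures. Only the compared libraries gave 2804 in the female KO response, 3916 between sexes in HDM WT (6657 before), 5 and 9 between naive sexes and 1 in naive females and HDM males between genotypes, and at least 10 counts in every library gave 10 between naive WT sexes. The cause was not tested for DESeq2 or for the fits on fewer libraries.

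Equal replicate numbers are not stated to mark a shared pool. Correlations of replicate deviations ran from -0.164 to 0.483 over 12 comparisons, and the replicate block removed 1 member call, that of Slc12a2 in the sex difference of the KO response (adjusted p = 0.0523). Scaling by library size only shifted the median of all genes by -0.08 (log2) in the female WT response. Of 80 group levels, 4 moved by more than 1 SD under upper-quartile scaling and 8 under library size only. Depth limits Cftr, Clca1 and Slc26a4 most.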
